A study of Mus musculus with 8 samples.

Results

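The results below describe 39 mouse genes that neurons use for their cytoskeleton, for adhesion and transmitter release at synapses, for RNA binding and for peptide secretion. They are followed across 4 groups of sorted neural stem and progenitor cells. The genes were taken by symbol, through the transcript accession of each array probe. All 39 were found, with 58 probes, and all 39 were among the 13790 genes tested, where the brightest probe stood for each gene. By role, 13 belong to the cytoskeleton, 11 to vesicle release, 4 to adhesion, 4 to RNA binding and 7 to the secretory granule.

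RNA was measured on 1-colour Agilent arrays, 1 per sample, with 2 arrays in each group. The cells were derived from mouse embryonic stem cells and grown as spheres in which wild-type cells and a line overexpressing the transcription factor NFIA were mixed. They were then separated by fluorescence-activated sorting, so every group had shared its culture with cells of the other kind. PN_control and PN_NFIA are the control and NFIA cells of primary neurospheres (passage 0, day 6). SN_control and SN_NFIA are the same kinds of cell from secondary neurospheres (passage 1, day 12). The construct, its promoter and the number of clones behind the line are not given in the sources used here, nor is it stated that arrays of a group came from separate cultures. The p-values therefore measure the spread between these arrays, which may be technical.

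The arrays carry conflicting labels. The deposited value table matched 7 of 8 columns to the scanner file of another sample, and groups follow the value table and the sample titles here. Assigned in this way, 6 of 8 arrays correlated best with the other array of their group, against 0 of 8 with the files as attached. Source names contradict the titles: the 4 control samples are sourced from the NFIA line, while 2 NFIA samples (PN_NFIA 1 and SN_NFIA 2) are sourced from WT. The 2 passages sit in different rows of the slide, and the 2 cell types in different columns, so that effects of position and of group cannot be told apart. With the files as attached, or with cell type taken from source names, 0 genes passed the test in any comparison. Nfia itself stood at -1.15 and -0.15 (log2 level) in PN_control, -0.07 and 1.08 in PN_NFIA, 1.15 and 0.80 in SN_control, and 1.86 and 1.81 in SN_NFIA. Its difference between NFIA and control cells over both passages was 1.01 ± 0.32 (SE, 8 arrays), with an adjusted p of 0.167. The spots well above background made up 45.4% to 56.4% of an array, and the number of arrays limits the precision. The labelled cell type has 10 neural stem cell markers here, all of them well above background on both arrays of every group. So were all 6 pluripotency markers. At least 6 of 7 mesenchymal and 6 of 8 oligodendrocyte lineage markers also were in each group. Signal above background thus cannot tell the labelled cell type from these others, and cell identity was not tested.

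Neurons are built around microtubules and neurofilaments, which carry cargo along the axon and set its calibre. At the axon ending, SNARE proteins fuse transmitter vesicles with the membrane when calcium enters, while larger dense-core granules, shaped by granins, store and release neuropeptides. In neural progenitor cultures, transcripts of such proteins are often used as marks of cells that have begun to become neurons. The genes followed here are not all restricted to neurons: Cntn1 is also a contactin of oligodendrocyte precursors. The cell type that each transcript came from was not tested. NFIA is known for its part in the switch of neural progenitors from making neurons to making glia.

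Promoter sequences from RefSeq (GRCm38.p6) were matched for 28 of the 39 genes, with 41 promoters. Celf4, Dpysl3, Gap43, Mapt, Nefl, Nefm, Snap25, Stmn2, Stmn4, Syt4 and Vamp2 had no entry. The cAMP response element (TGACGTCA, its own reverse complement), the site bound by CREB and first described in the Sst promoter, was searched in windows of 300 bases, 250 before and 50 after the start. It lay in 5 of the 28 members with a promoter, and in 1.79% of all 32851 promoters, or 2.03% of 27025 genes. The 5 are Scg2, Cartpt, Sst and Chgb, which encode granule proteins or neuropeptides, and the vesicle protein gene Syn1. They are shown because 3 of them, Scg2, Cartpt and Sst, are among the members that fell with passage, as described below. Of the other members that fell, Elavl4 had no such element, and Nefl, Nefm, Stmn2, Stmn4 and Syt4 had no entry to search. A link between the element and the fall was not tested. Each line gives bases -200 to -1 before the start on the gene's strand, with the element in capitals. The positions are chr1:79440027-79440226 (minus strand) for Scg2, chr13:99900684-99900883 (minus) for Cartpt, chr16:23890845-23891044 (minus) for Sst, chr2:132781442-132781641 (plus) for Chgb and chrX:20920919-20921118 (minus) for Syn1.
Scg2: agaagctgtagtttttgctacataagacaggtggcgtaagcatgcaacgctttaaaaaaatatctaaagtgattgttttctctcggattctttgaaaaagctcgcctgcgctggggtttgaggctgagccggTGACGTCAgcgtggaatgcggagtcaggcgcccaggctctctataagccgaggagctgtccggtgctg
Cartpt: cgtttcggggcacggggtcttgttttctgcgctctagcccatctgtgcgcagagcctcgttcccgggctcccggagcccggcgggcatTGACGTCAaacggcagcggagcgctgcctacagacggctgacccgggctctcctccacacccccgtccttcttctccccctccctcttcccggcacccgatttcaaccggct
Sst: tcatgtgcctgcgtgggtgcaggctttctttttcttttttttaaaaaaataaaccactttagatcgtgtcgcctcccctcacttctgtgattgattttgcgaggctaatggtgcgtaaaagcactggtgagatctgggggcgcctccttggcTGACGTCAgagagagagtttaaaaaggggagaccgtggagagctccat
Chgb: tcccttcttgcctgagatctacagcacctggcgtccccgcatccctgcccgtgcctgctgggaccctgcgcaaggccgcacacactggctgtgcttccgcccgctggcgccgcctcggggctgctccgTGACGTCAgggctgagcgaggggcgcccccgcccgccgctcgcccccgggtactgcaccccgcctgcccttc
Syn1: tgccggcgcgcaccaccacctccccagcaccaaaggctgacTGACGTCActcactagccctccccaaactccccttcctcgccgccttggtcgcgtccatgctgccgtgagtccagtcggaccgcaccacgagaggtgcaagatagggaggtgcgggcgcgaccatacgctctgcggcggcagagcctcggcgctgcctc

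The element starts at -68 in Scg2, -112 in Cartpt, -48 in Sst, -72 in Chgb and -159 in Syn1, counted back from the start of transcription. A match is a description of the letters and not a bound site. The left part of the RE1 element (TTCAGCACC, either strand), the motif of the neuronal gene repressor REST, was found in the windows of Nlgn1, Scg2 and Syn1. It lay in 0.371% of all promoters, or 0.433% of genes. The palindromic NFI motif and its short form were found in 0 members, against 0.0444% and 0.925% of genes. TATAAA (either strand) was found in 4 of the 28 members, Chga, Cntn1, Dcx and Elavl3, against 15.7% of genes.

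Levels are given as log2 of the processed signal minus the log2 of the array's 75th percentile, so that 0 is the 75th percentile and a step of 1 is a doubling. Probes differ in brightness, so a level is compared only with the same gene on other arrays. Of the 39 members, 34 were well above background on all 8 arrays. The exceptions were Syt4, Sst and Cntn2, above background on neither array of SN_NFIA (Sst and Cntn2 on only 1 of SN_control), and Cartpt and Npy, each missed on 1 array. The lowest group mean was that of SN_NFIA for 26 members, PN_NFIA for 7, PN_control for 4 and SN_control for 2. The highest was that of PN_control for 20 members, SN_control for 12, SN_NFIA for 7 and PN_NFIA for 0. The heat map of members by array shows this order most evenly in the cytoskeletal genes. Among the secretory genes Scg2, Chgb, Cartpt and Sst had SN_NFIA lowest and PN_control highest, and Scg3, Npy and Chga did not. Parts of the release and adhesion genes show a different order.

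**Figure D1:**
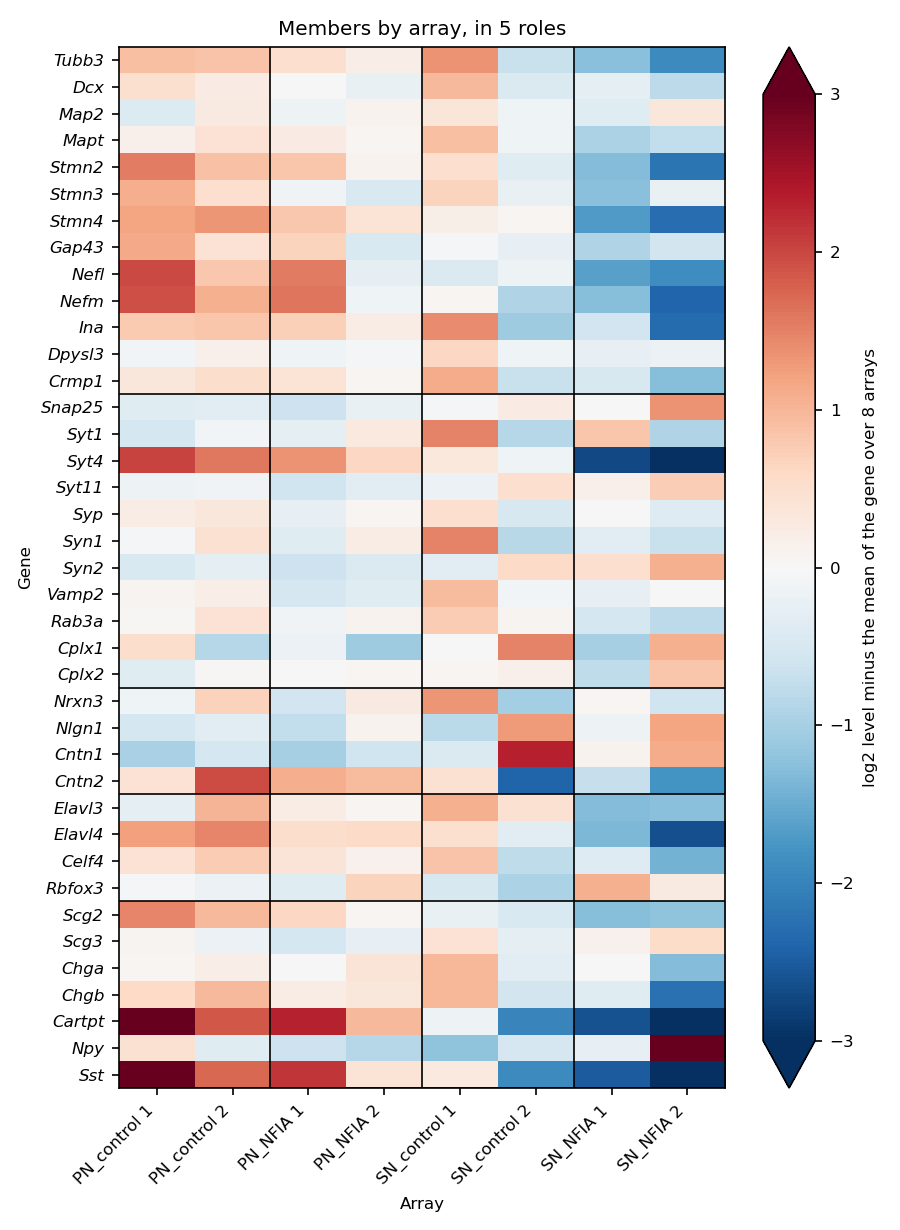
Colour gives the log2 level of each of the 39 members on each of the 8 arrays, minus the mean of the gene over the 8 arrays, with rows in 5 roles and colours cut at -3 and 3. SN_NFIA 2 was the lowest array for 17 members, and SN_control 1 the highest for 17.

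With passage, 9 of the 39 members fell and 0 rose over both cell types (limma, adjusted p under 0.05 over all genes), beside 7.09% of all genes in either direction. Cartpt and Sst, which encode neuropeptides, the granin gene Scg2, the synaptotagmin gene Syt4, the neurofilament genes Nefl and Nefm, the stathmin genes Stmn2 and Stmn4 and the Hu protein gene Elavl4 fell. Their differences (secondary minus primary) ran from -4.29 for Cartpt to -1.58 for Scg2. Lower calls made up 3.65% of all genes. Higher calls made up 3.44%. At an unadjusted p under 0.05 the members numbered 16, against 26.0% of all genes. The median difference of the 39 members was -0.33 and that of all genes -0.07. The difference was negative for 26 members and positive for 13, while 56.4% of all genes were negative. The 4 secondary arrays all lay below the 4 primary arrays for 6 members (Stmn4, Syt4, Elavl4, Scg2, Cartpt and Sst; 7.64% of all genes) and above them for 2 (Snap25 and Cntn1; 4.55% of all genes).

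These passage calls rest on few arrays. Without PN_control 1, and likewise without PN_NFIA 1, 0 members passed, and without any other array 2 to 16 did, in every such fit with all 9 differences still negative. Leaving out SN_control 1 raised the count to 14 that fell and 2, Syn2 and Cntn1, that rose.

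**Figure D2:**
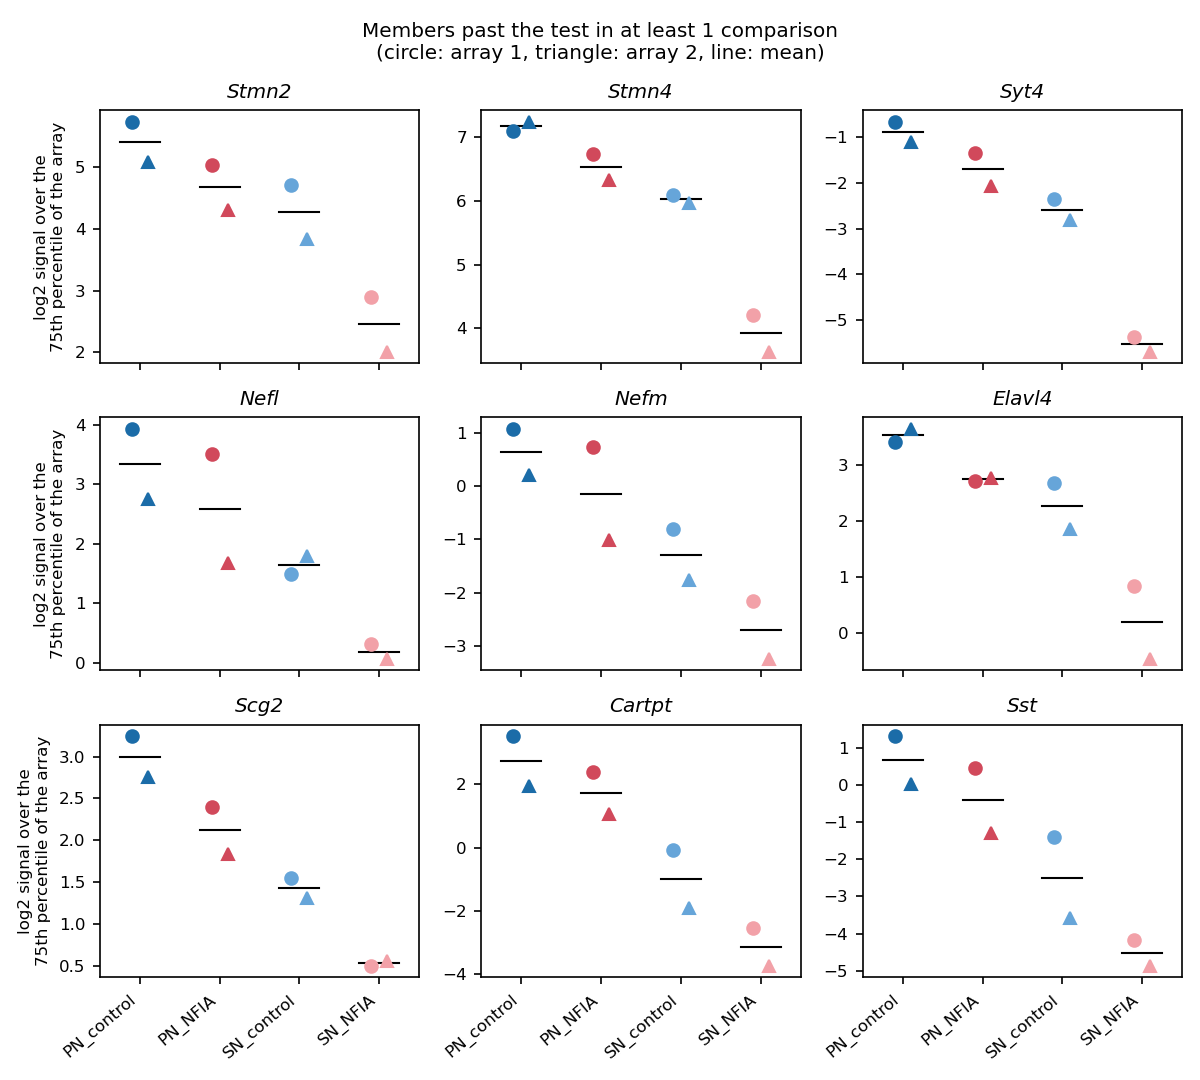
Each panel gives 1 of the 9 members that passed the test in at least 1 comparison, with the log2 level over the array's 75th percentile on the vertical axis, circles for array 1, triangles for array 2 and a line for the mean of 2 arrays. In every panel the mean steps down from PN_control through PN_NFIA and SN_control to SN_NFIA.

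Among the 13 cytoskeletal genes, Stmn2, Stmn4, Nefl and Nefm fell with passage, 0 rose, and 11 had a negative difference (median -0.88). Stmn4, of the stathmin family of tubulin-binding proteins, stood at 7.10 and 7.24 in PN_control, 6.73 and 6.33 in PN_NFIA, 6.09 and 5.97 in SN_control, and 4.21 and 3.63 in SN_NFIA. No secondary array reached the lowest primary one, and the passage difference was -1.88 ± 0.32 (SE, 8 arrays; adjusted p 0.0243). Its relative Stmn2 stood at 5.74 and 5.08, 5.03 and 4.31, 4.71 and 3.84, and 2.90 and 2.01 in the same order of groups. SN_control overlapped PN_NFIA, SN_NFIA lay below all other arrays, and the passage difference was -1.68 ± 0.37 (adjusted p 0.0397). Stmn3, the third stathmin gene among the members, differed by -0.53 ± 0.31 (adjusted p 0.318).

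The neurofilament subunit genes showed the same order of group means with a wider spread between arrays. Nefl, the light subunit, stood at 3.93 and 2.74 in PN_control, 3.51 and 1.67 in PN_NFIA, 1.5 and 1.79 in SN_control, and 0.31 and 0.07 in SN_NFIA. Array 2 of PN_NFIA lay among the control arrays of the secondary spheres. Nefl fell with passage by 2.05 on the log2 scale (SE 0.44, adjusted p 0.0375). Nefm, the medium subunit, stood at 1.07 and 0.20, 0.73 and -1.01, -0.81 and -1.77, and -2.15 and -3.24, with a passage difference of -2.24 ± 0.47 (adjusted p 0.0357). In Nefm too, PN_NFIA 2 overlapped SN_control. Ina, which encodes the neurofilament partner alpha-internexin, spanned 5.68 in SN_control 1 to 1.95 in SN_NFIA 2, and its difference of -1.27 ± 0.61 did not pass (adjusted p 0.238).

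The other cytoskeletal members did not pass the passage test. Tubb3, the neuronal beta-tubulin gene, differed by -1.24 ± 0.48 (adjusted p 0.150), and Gap43, of the growth cone membrane, by -0.88 ± 0.28 (adjusted p 0.0990). Crmp1, Mapt (tau) and Dcx (doublecortin) lay at -0.66, -0.45 and -0.26. The differences of Map2, of dendritic microtubules, and of Dpysl3, a collapsin response mediator like Crmp1, were 0.09 and 0.05.

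Of the 7 secretory genes, Cartpt, Sst and Scg2 fell with passage and 0 rose (median difference -1.07). Cartpt, the precursor gene of the CART peptide, stood at 3.52 and 1.96 in PN_control, 2.40 and 1.06 in PN_NFIA, -0.07 and -1.90 in SN_control, and -2.53 and -3.73 in SN_NFIA. The secondary arrays all lay below the primary ones, with a difference of -4.29 ± 0.59 (adjusted p 0.0156). SN_NFIA 2 was not well above background for Cartpt, and with that array raised to its lowest signal well above background the difference was -4.28, or at least 19.4-fold. Sst, for somatostatin, stood at 1.31 and 0.03, 0.45 and -1.29, -1.40 and -3.59, and -4.18 and -4.87. SN_control 2 and both SN_NFIA arrays were not well above background for Sst. Its difference was -3.64 ± 0.60 (adjusted p 0.0230), with the highest secondary array just under the lowest primary one. Of these dim arrays, only SN_NFIA 2 lay under its array's lowest signal well above background. With SN_NFIA 2 raised to that signal the difference of Sst was -3.34 (10.1-fold). SN_control 2 and SN_NFIA 1 kept their measured dim levels, so this is not a lower bound.

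Scg2, for the granin secretogranin II, had the smallest adjusted p of the members for passage. It stood at 3.24 and 2.75 in PN_control, 2.40 and 1.84 in PN_NFIA, 1.54 and 1.31 in SN_control, and 0.50 and 0.56 in SN_NFIA. The 4 groups did not overlap for this gene, and the passage difference was -1.58 ± 0.20 (adjusted p 0.0148), close to 3-fold (2.98). The passage difference of Scg2 in control cells (-1.57) and in NFIA cells (-1.58) was nearly the same.

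The remaining granin genes did not pass: Chgb differed by -1.07 ± 0.50 (adjusted p 0.225), Chga by -0.33 ± 0.42 and Scg3 by 0.43 ± 0.24. The neuropeptide gene Npy stood at -1.69 and -2.51 in PN_control, -2.78 and -3.0 in PN_NFIA, -3.37 and -2.66 in SN_control, and -2.39 and 1.18 in SN_NFIA. Array 2 of SN_NFIA alone lay high, and the passage difference was 0.68 ± 0.89 (adjusted p 0.672).

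The 11 vesicle release genes were divided in sign with passage: 7 were positive and 4 negative (median 0.29), and of these Syt4 fell and 0 rose. Syt4, a synaptotagmin of dense-core and other secretory vesicles, stood at -0.66 and -1.11 in PN_control, -1.33 and -2.06 in PN_NFIA, -2.36 and -2.82 in SN_control, and -5.39 and -5.70 in SN_NFIA. The groups did not overlap, both SN_NFIA arrays were not well above background, and the difference was -2.78 ± 0.45 (adjusted p 0.0211). With both dim arrays raised to their lowest signal well above background it was -2.0, or at least 4.01-fold. Syn2, for a synapsin that tethers vesicles, went the other way in its values, at 0.73 and 0.91, 0.57 and 0.75, 0.86 and 1.77, and 1.70 and 2.25. SN_control 1 lay within the primary arrays, and the difference of 0.90 ± 0.28 did not pass (adjusted p 0.0922).

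Snap25, a SNARE protein gene, had all secondary arrays above the primary ones, with 3.79 as the lowest secondary and 3.60 as the highest primary level. Its difference was 0.77 ± 0.32 (adjusted p 0.178), and that of the synaptotagmin gene Syt11 was 0.61 ± 0.24 (adjusted p 0.163). Rab3a, for a small GTPase of synaptic vesicles, stood at 3.79 and 4.19 in PN_control, 3.65 and 3.86 in PN_NFIA, 4.51 and 3.83 in SN_control, and 3.22 and 2.96 in SN_NFIA. Only SN_NFIA lay apart, below the other groups, and the passage difference was -0.24 ± 0.26 (adjusted p 0.593). Cplx1, Vamp2, Syt1 and Cplx2 had positive differences between 0.14 and 0.78, and Syp and Syn1 had -0.19 and -0.15. The complexins (Cplx1, Cplx2) clamp the SNARE complex, Vamp2 is the vesicle SNARE, Syt1 the calcium sensor of fast release, and Syp and Syn1 are proteins of the vesicle surface.

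On the brightest probes all 4 RNA-binding genes had a negative passage difference, and Elavl4 fell. That of Rbfox3 was near 0 (-0.06), and its 3 kept probes did not share a sign (-0.20 to 0.68). Elavl4, for the neuronal Hu protein HuD that binds and stabilises messages, stood at 3.41 and 3.64 in PN_control, 2.72 and 2.76 in PN_NFIA, 2.66 and 1.86 in SN_control, and 0.84 and -0.46 in SN_NFIA. The arrays of the 4 groups did not overlap, and the passage difference was -1.91 ± 0.39 (adjusted p 0.0329). Elavl3, for HuC, stood at 3.42 and 4.70, 3.92 and 3.73, 4.75 and 4.14, and 2.39 and 2.43, with a difference of -0.52 ± 0.43 (adjusted p 0.491). For Elavl3 both SN_NFIA arrays lay apart below the rest, while SN_control lay within and above the primary values. Celf4, a splicing and stability factor, differed by -0.85 ± 0.39 (adjusted p 0.216).

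The 4 adhesion genes were split, and 0 passed for passage over both cell types (2 at an unadjusted p under 0.05, Cntn1 and Cntn2). Cntn1, a contactin of axons and of oligodendrocyte precursors, stood at 2.05 and 2.50 in PN_control, 2.05 and 2.44 in PN_NFIA, 2.60 and 5.38 in SN_control, and 3.14 and 4.14 in SN_NFIA. Both secondary arrays numbered 2 were the highest, and the difference was 1.55 ± 0.56 (adjusted p 0.131). The other contactin gene, Cntn2, stood at -2.75 and -1.25, -2.10 and -2.26, -2.73 and -5.61, and -3.90 and -4.98, with a difference of -2.22 ± 0.63 (adjusted p 0.0739). SN_control 2 and both SN_NFIA arrays were not well above background for it.

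For the synapse organisers the spread between arrays exceeded the difference. Nlgn1, for a postsynaptic neuroligin, stood at -2.46 and -2.26, -2.68 and -1.84, -2.73 and -0.66, and -2.09 and -0.75, with a passage difference of 0.75 ± 0.49 (adjusted p 0.372). As with Cntn1, the highest arrays were the secondary ones numbered 2. The presynaptic neurexin gene Nrxn3 ran from 1.66 in SN_control 2 to 4.01 in SN_control 1 and differed by -0.12 ± 0.50.

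**Figure D3:**
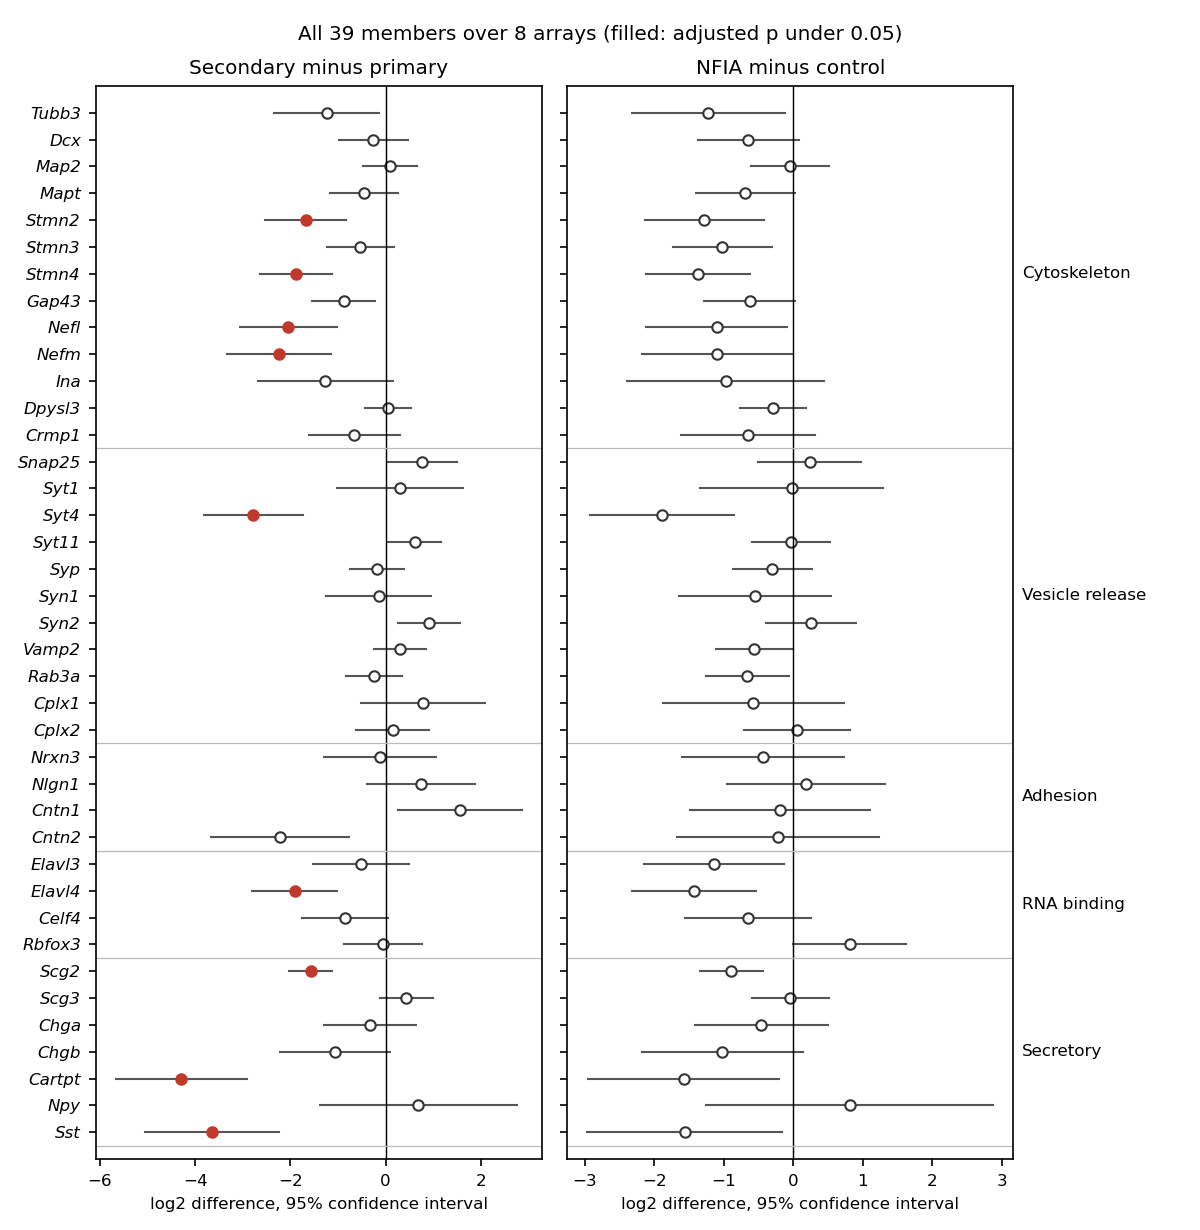
Points give the log2 difference of each member over 8 arrays, secondary minus primary on the left and NFIA minus control on the right, with bars for the 95% confidence interval, and filled points passed the test. The 9 filled points are all on the left and all below 0, and on the right 33 of 39 points lie below 0.

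Within NFIA cells, 3 members fell with passage and 0 rose, beside 1.66% of all genes in either direction and 1.16% lower. The difference was negative for 27 members (52.3% of all genes), 16 members had an unadjusted p under 0.05 (21.2%), and for 22 both SN_NFIA arrays lay below both PN_NFIA arrays (30.6%). Syt4 fell by 3.85 (log2, SE 0.35, adjusted p 0.0212), Stmn4 by 2.61 (SE 0.29, adjusted p 0.0220) and Cartpt by 4.86 (SE 0.83, adjusted p 0.0460). With only the NFIA groups in the fit, 0 members passed. Since Syt4 was not well above background in SN_NFIA, its fall is at least 4.92-fold. This bound sets the mean of the brighter group against that of the dimmer group. Any array of the dimmer group under its lowest signal well above background is first raised to that signal. Computed in the same way, Sst was 11.4-fold lower (adjusted p 0.0665) and Cntn2 3.05-fold lower (adjusted p 0.230), and neither passed. For both of these genes SN_NFIA 2 was raised and SN_NFIA 1 kept its measured dim level, so their folds are not lower bounds. Within control cells 0 members passed, 9 at an unadjusted p under 0.05 (13.3% of all genes), beside 0.783% of all genes called (0.102% lower), and 22 were negative (59.6% of all genes). The values for control cells were -3.72 ± 0.83 for Cartpt (adjusted p 0.123), -3.17 ± 0.87 for Sst (adjusted p 0.196), -1.71 ± 0.35 for Syt4 (adjusted p 0.10) and -1.15 ± 0.29 for Stmn4 (adjusted p 0.166). All 3 calls in NFIA cells were lost without any 1 of PN_control 1, PN_control 2, PN_NFIA 1, SN_NFIA 1 or SN_NFIA 2 (0 members passed), 1 was left without PN_NFIA 2, and 8 members passed without either SN_control array.

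Between NFIA and control cells over both passages, 0 members passed the test, beside 1.99% of all genes (1.81% higher, 0.181% lower). At an unadjusted p under 0.05 the members numbered 15, against 17.6% of all genes, and 3 of the alternative fits called 1 member each (Scg2 in 2 of them, Cartpt in 1). The difference was negative for 33 members and for 54.6% of all genes, and the medians were -0.63 and -0.04. The NFIA arrays as a set of 4 lay neither below (2.07% of all genes) nor above (3.68%) the 4 control arrays for any member. Within each passage, arrays of equal number can be set side by side, though the labels do not tie them to a culture. The NFIA array was the lower in all 4 such pairs for 18 members (19.2% of all genes), in 3 for 11 (23.5%), in 2 for 7 (23.6%) and in 1 for 3 (18.4%).

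By role, all 13 cytoskeletal genes had a negative NFIA difference (median -0.97), as did 8 of 11 release genes (median -0.30), 3 of 4 adhesion genes (-0.21), 3 of 4 RNA-binding genes (-0.90) and 6 of 7 secretory genes (-0.89). The smallest adjusted p was that of Scg2, with -0.89 ± 0.20 (adjusted p 0.0713). Next came Stmn4 with -1.37 ± 0.32 (adjusted p 0.0841), Syt4 with -1.89 ± 0.45 (adjusted p 0.0849) and Elavl4 with -1.43 ± 0.39 (adjusted p 0.122). The value for Syt4 rests on the dim SN_NFIA arrays, and with them raised to their lowest signal well above background it was -1.11. In all 4 of these genes both NFIA arrays lay below both control arrays within each passage. Elavl3 differed by -1.14 ± 0.43 (adjusted p 0.237), Rab3a by -0.66 ± 0.26 (adjusted p 0.243), Tubb3 by -1.22 ± 0.48 (adjusted p 0.243) and Cartpt by -1.58 ± 0.59 (adjusted p 0.230).

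Rbfox3, for the splicing factor known as NeuN, had the highest of the 39 differences, just above that of Npy. It stood at 2.09 and 1.96 in PN_control, 1.76 and 2.79 in PN_NFIA, 1.64 and 1.17 in SN_control, and 3.18 and 2.39 in SN_NFIA. The secondary groups did not overlap and the primary ones did, and the difference over both passages was 0.81 ± 0.35 (adjusted p 0.283). The 3 kept probes of Rbfox3 did not share a sign, with differences from -0.07 to 0.81.

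Within primary neurospheres 0 members passed for NFIA, 1 (Scg2) at an unadjusted p under 0.05 (9.44% of all genes), beside 0.305% of all genes called. The median member difference was -0.36, against -0.07 for all genes, and 33 members were negative (56.6% of all genes). Both PN_NFIA arrays lay below both PN_control arrays for 16 members, against 28.9% of all genes, and above them for 0, against 22.5%. Scg2 differed by -0.88 ± 0.30 (adjusted p 0.396), Stmn3 by -1.08 ± 0.46 (adjusted p 0.533) and Sst by -1.09 ± 0.87 (adjusted p 0.769).

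Within secondary neurospheres Stmn4 and Syt4 fell and 0 members rose, beside 0.877% of all genes in either direction and 0.413% lower. Stmn4 fell by 2.11 (log2, SE 0.29, adjusted p 0.0357) and Syt4 by 2.96 (SE 0.35, adjusted p 0.0259). For Syt4 this is a fall of at least 2.65-fold, given its dim signal in SN_NFIA. Neither passed with only the secondary groups in the fit, where 0 genes were called. The median member difference was -0.83, against -0.01 for all genes, but -0.36 without SN_control 1 and -1.52 without SN_control 2. As reported 32 members were negative (50.8% of all genes). At an unadjusted p under 0.05 there were 11 members, against 15.1% of all genes. Both SN_NFIA arrays lay below both SN_control arrays for 15 members (19.6% of all genes) and above them for Npy and Rbfox3 (19.4% of all genes). Elavl3 at -2.04 ± 0.44 (adjusted p 0.0840), Elavl4 at -2.07 ± 0.47 (adjusted p 0.0967) and Tubb3 at -1.91 ± 0.61 (adjusted p 0.205) did not pass. Syt4 kept its call without either PN_NFIA array or SN_control 2, Stmn4 only without SN_control 2 (4 members passed there), and 0 members passed without any other array.

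The NFIA difference was negative in both passages for 28 members (71.8%, against 35.0% of all genes), positive in both for 2 and of opposite sign for 9. It lay lower in secondary than in primary neurospheres for 29 members, against 46.3% of all genes. Without SN_control 1 this held for 19 members, and the median change of the members was 0.05 in place of -0.34. The test of that change called 0 of 13790 genes and 0 members, with 902 genes (6.54%) and 3 members at an unadjusted p under 0.05. The 3 members were Syt4 (-2.14 ± 0.49, adjusted p 0.348), Stmn4 (-1.47 ± 0.41, adjusted p 0.459) and Elavl3 (-1.80 ± 0.62, adjusted p 0.626). For Syt4 the change was -0.59 with the dim SN_NFIA arrays raised to their lowest signal well above background. The calls in secondary and not in primary neurospheres are thus not shown to differ between passages.

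**Figure D4:**
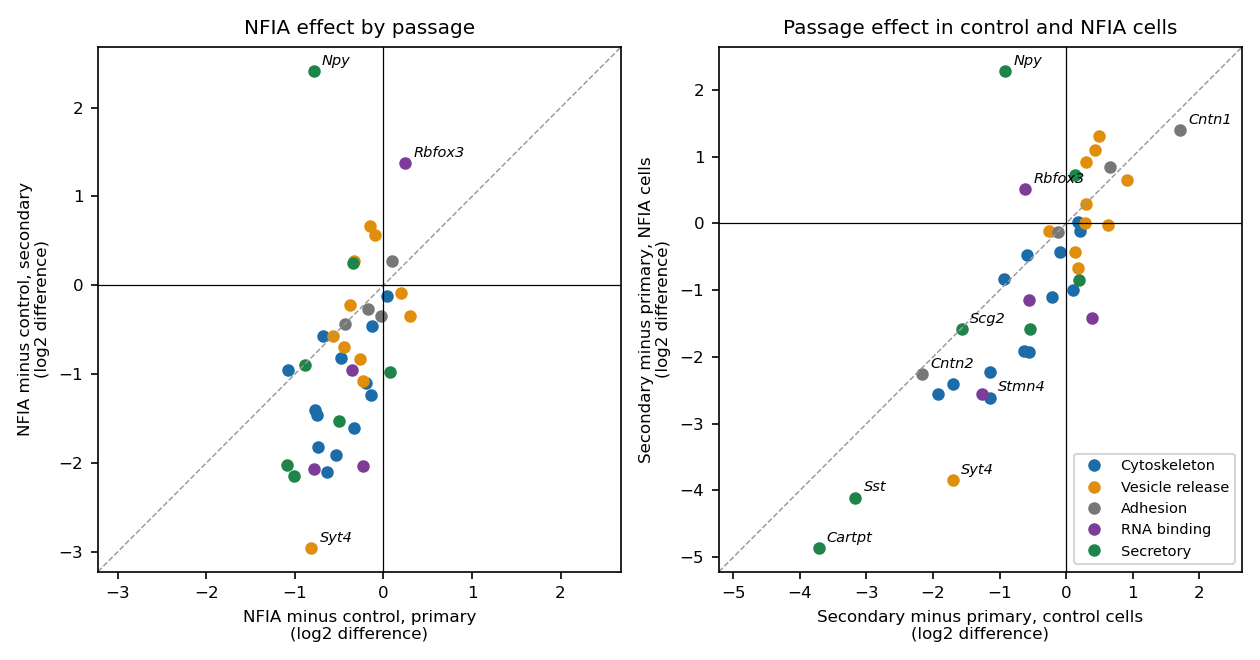
Each point is 1 of the 39 members, coloured by role, with the log2 NFIA difference in primary (horizontal) and secondary (vertical) neurospheres on the left, and the log2 passage difference in control (horizontal) and NFIA (vertical) cells on the right. Below the dashed line of equality in either panel lie 29 members, and the panels share their 8 arrays.

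Replicate arrays of secondary neurospheres differed more often by over 1 in these genes than over all genes. SN_control 1 lay above SN_control 2 for 30 of the 39 members (median 0.81), and 46.2% of members differed by over 1, against 19.5% of all genes. In SN_NFIA 41.0% of members differed by over 1, against 14.8% of all genes, and array 1 was higher for 22. In the primary groups the share was 15.4% for both, against 6.61% (PN_control) and 5.46% (PN_NFIA) of all genes. Tubb3, at 6.98 and 4.97 in SN_control, and Ina, at 5.68 and 3.18, are 2 members with a wide gap, named after their values were seen. Syn1 (3.23 and 0.91) and Syt1 (5.09 and 2.75) had gaps as wide. Cntn1, Nlgn1 and Cplx1 lay higher by over 1 on array 2 of both secondary groups. Snap25, Syt11, Syn2, Cplx2 and Npy were also higher on array 2 of both, by over 1 in SN_NFIA alone or in neither.

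Summed signals of glial markers differed between groups and between arrays of a group. The summed signal of 9 astrocyte markers (in units of the array's 75th percentile; Gjb6, the tenth, was not kept) was 17.9 and 22.0 in PN_control, 73.9 and 227.1 in PN_NFIA, 62.7 and 252.0 in SN_control, and 553.2 and 976.8 in SN_NFIA. Array 2 was the higher in each group, and Gfap was well above background in SN_NFIA alone, and S100b on neither array of PN_control. For 8 oligodendrocyte lineage markers the sums were 9.63 and 10.02, 8.47 and 9.04, 16.7 and 620.1, and 22.6 and 162.3, so that both secondary arrays numbered 2 stood far above the rest. Cspg4 and Gpr17 were not well above background in PN_control. With passage the astrocyte markers Sparcl1, Aldh1l1 and Slc1a3 and the oligodendrocyte lineage markers Olig1, Pdgfra and Cspg4 rose. The myelin gene Mbp went the other way: it differed with passage by -1.09 over both cell types (adjusted p 0.0983), and in NFIA cells it fell by 1.86 with passage (adjusted p 0.0442). With NFIA over both passages Sparcl1 was the one astrocyte marker that rose (8 of 9 positive), and 0 of 8 oligodendrocyte lineage markers passed (4 positive, 1 at an unadjusted p under 0.05). In secondary neurospheres Mbp fell by 2.05 with NFIA (adjusted p 0.0437). The sums of the 39 members were 948.7 and 1002, 812.6 and 745.8, 1100 and 707.9, and 512.5 and 668.5. Those of the 10 neural stem cell markers lay between 303.4 and 761.8, with SN_NFIA 2 the highest. Gene by gene, 9 of these 10 had a negative passage difference over both cell types (median -0.40). Their mean log2 level was 4.14 and 4.07 in PN_control, 3.75 and 3.86 in PN_NFIA, 3.61 and 2.96 in SN_control, and 3.73 and 3.44 in SN_NFIA. With NFIA, 9 were negative in primary neurospheres (median -0.24) and 4 in secondary ones (median 0.20). In bulk RNA, fewer neuronal cells and less RNA of the 39 members per cell cannot be told apart.

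Markers of other cell types also differed between groups. Of 6 neural crest and peripheral neuron markers, 5 had a negative passage difference over both cell types (median of the 6, -1.59) and 5 an unadjusted p under 0.05. Among them Th, for tyrosine hydroxylase, fell by 1.17 (adjusted p 0.0251). The other marker, Sox10, was positive (4.29) and did not pass, and it is also among the oligodendrocyte lineage markers above. The sums of the 6, Sox10 included, were 7.08 and 6.99 in PN_control, 5.42 and 3.53 in PN_NFIA, 5.43 and 19.3 in SN_control, and 2.12 and 10.3 in SN_NFIA. The islet peptide gene Iapp fell by 2.77 with passage (adjusted p 0.00970), 1 of 2 endocrine markers measured, and was not well above background in the secondary groups. Of 6 pluripotency markers, Esrrb fell by 1.71 with passage (adjusted p 0.0352), and the sums ran from 44.5 to 86.9 in primary and from 7.70 to 47.1 in secondary groups. Of 7 mesenchymal markers, Col1a1 rose with passage by 3.74 (adjusted p 0.0287), and Prrx1 and Acta2 rose with NFIA over both passages by 1.89 and 1.7 (adjusted p 0.0157 and 0.0433). All 7 were positive with NFIA in primary neurospheres at an unadjusted p under 0.05, and the sums were 3.95 and 3.44, 9.75 and 15.2, 19.6 and 50.5, and 13.6 and 21.2. The part of RNA from glia or from these cell types in the members' differences was not tested.

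**Figure D5:**
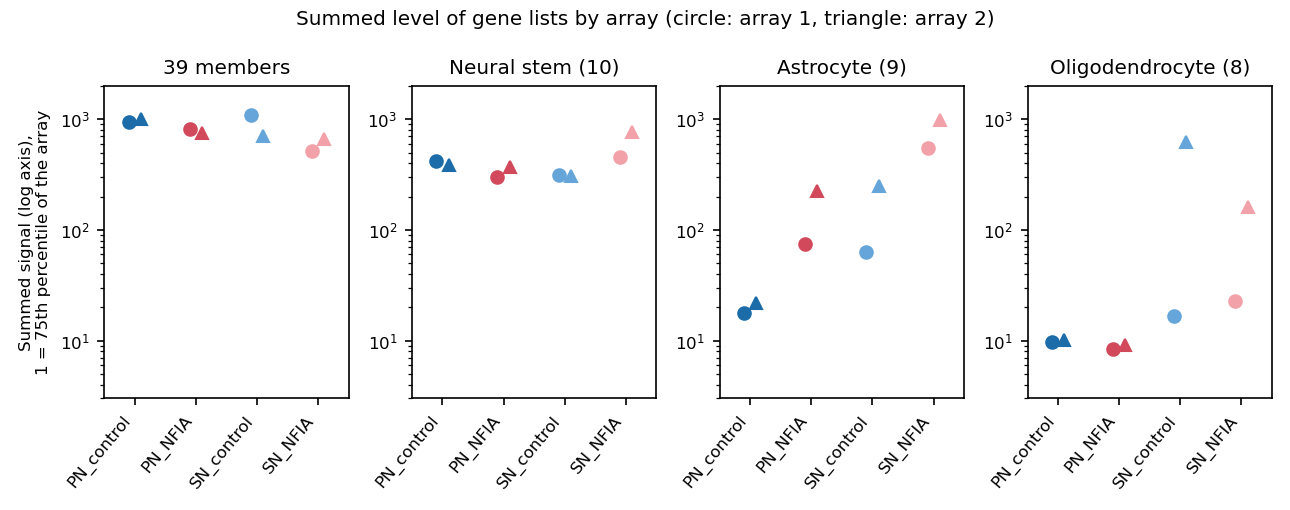
Points give the summed signal of a gene list on each array (log axis; 1 is the array's 75th percentile), circles for array 1 and triangles for array 2 of each group. Oligodendrocyte markers reach 620.1 and 162.3 on the secondary arrays numbered 2 and stay at or below 22.6 on the other 6.

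Without both secondary arrays numbered 2, a setting chosen after the glial markers were seen, 2 members (Scg2 and Cartpt) fell with passage over both cell types, and the median passage difference of the members was -0.19. Without both numbered 1, 14 fell and Syt11, Syn2, Nlgn1 and Cntn1 rose, with a median of -0.74. For NFIA over both passages 0 members passed in either case, with medians of -0.71 and -0.43. In these fits a lone array is assumed to vary like the primary groups.

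Among 86 other tested genes of the same 5 roles, 6 fell and 3 rose with passage over both cell types, beside 3.65% and 3.44% of all genes. With NFIA over both passages 0 changed, and 26 had an unadjusted p under 0.05, against 17.6% of all genes. The 6 that fell are mostly of the secretory granule. The tachykinin gene Tac1 stood in group means at -1.57 (PN_control), -2.39 (PN_NFIA), -3.31 (SN_control) and -5.90 (SN_NFIA), with a difference of -2.63 ± 0.43 (adjusted p 0.0229). The neurotensin gene Nts differed by -2.50 ± 0.47, the granule membrane gene Ptprn by -1.29 ± 0.20, the prohormone convertase gene Pcsk2 by -1.10 ± 0.22 and the galanin gene Gal by -0.80 ± 0.16. Tac1 lay under the array's lowest signal well above background on both SN_NFIA arrays (-6.00 and -5.80). So did Ptprn on every secondary array (-5.29 to -5.90). The differences of Tac1 and Ptprn thus rest on dim signal, and no bound was computed for them. Rab3b, a relative of Rab3a, differed by -1.32 ± 0.17 (adjusted p 0.0150). The enkephalin gene Penk rose, by 2.24 ± 0.42 (adjusted p 0.0283), as did the microtubule-binding kinase gene Dclk1 (1.08 ± 0.25, adjusted p 0.0442) and the neuroligin gene Nlgn3 (0.99 ± 0.22, adjusted p 0.0404). Rest, the repressor gene of the RE1 element, differed by 0.06 ± 0.20 (adjusted p 0.875).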

How the data were processed

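Sorted neural stem and progenitor cells were measured on 8 Agilent 1-colour arrays. The deposited scanner files hold a processed intensity per spot, background-subtracted and spatially detrended, per the file headers by Feature Extraction 10.5.1.1 (10.7.3.1 per the submitters' processing notes). The authors' deposited value table is on a log2 scale, and its values match array signals relative to their 75th percentile with each probe centred on its median. Each of its columns matched 1 scanner file at a correlation of at least 0.99997, the next best reaching 0.339, and this gave each sample its array. The deposited flags, other values of 0 or 1, mark spots above background and outliers.

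Each log2 signal was expressed relative to its own array's 75th percentile. Of 55681 probes, 126 were left out by outlier flags. A probe was kept where both arrays of 1 or more groups had it well above background, and the brightest one stood for its gene. Of 55555 probes, 26010 were given a symbol, by their accession. Saturated spots numbered 0.

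Tests used limma 3.58.1 in R 4.3.3 (lmFit, eBayes; Benjamini-Hochberg over 13790 genes): a model of 4 group means, and an additive model of passage and NFIA for differences over 8 arrays. The fitting was tested on simulated data. Values in every array are given for the members past the test in any comparison and the 3 of each role with the smallest p, others being named by difference. Alternatives changed the array assignment, background correction (normexp on median signals), normalization, filter, probe choice, block and arrays included. The members, lists and rules were chosen with earlier results of these data known. A result for 1 marker gene is not reported here.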

Additional observations from a re-analysis of the deposited data

Results flagged for a closer look

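Npy differed between NFIA and control cells in opposite directions in the 2 passages: by -0.79 in primary and by 2.41 in secondary neurospheres (log2), with arrays that did not overlap in either. Likewise it differed with passage by -0.92 in control and by 2.28 in NFIA cells. The difference between these effects was 3.20 ± 1.44 (limma, adjusted p 0.793), so it did not pass the test. The high level of SN_NFIA came from array 2, at 1.18, against -2.39 on array 1. That array also held 976.8 in summed astrocyte marker signal. No outlier could be looked for, as groups hold 2 arrays.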

How the results depend on the processing

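Counts of genes called are given in the order NFIA over both passages, in primary and in secondary neurospheres, then passage over both cell types, in control and in NFIA cells, and were 274, 42, 121, 978, 108 and 229 as reported. With the files as attached, and with cell type from source names, they were 0 in all 6, with 0 members called (in this order the members called as reported were 0, 0, 2, 9, 0 and 3). With attached files the differences reversed to 1.04 (Stmn4) and 1.33 (Syt4) for NFIA in secondary neurospheres. For passage they reversed to 0.34 (Stmn2), 0.33 (Syt4), 0.62 (Nefl), 0.62 (Nefm), 0.34 (Scg2), 0.88 (Cartpt) and 1.13 (Sst), and in NFIA cells to 0.26 (Stmn4), 0.60 (Syt4) and 1.59 (Cartpt). By source names they were 1.79 (Stmn4) and 2.18 (Syt4) for NFIA in secondary neurospheres. WT is the source name of just 2 arrays, both titled NFIA. Without those 2 arrays, 57 genes were called for NFIA over both passages, 0 in the other comparisons, and 0 members. With no filter on dim probes the counts were 145, 0, 23, 458, 53 and 76, with 0, 5 and 2 members in the comparisons that had calls. With only probes above background on all arrays, 15, 64 and 67 genes were called for NFIA in primary and secondary neurospheres and passage in control cells, with 1 member (Stmn4) in secondary neurospheres; Cartpt, Cntn2, Npy, Sst and Syt4 are not tested there. After normexp 7 and 182 genes were called for NFIA in primary and secondary neurospheres, with 1 member (Stmn4) in the latter and 5 members for passage in NFIA cells. Quantile normalization gave 19 genes for NFIA in primary neurospheres. Trend and robust eBayes called 1 member for NFIA over both passages and 5 for passage in NFIA cells. With only the groups compared in the fit, 150, 0, 0 and 12 genes and 0 members were called for NFIA in primary and secondary neurospheres and passage in control and NFIA cells. The authors' value table and the mean of a gene's probes gave counts within 1.5 times those reported in all comparisons, with 9 and 10 members for passage over both cell types.

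Without both secondary arrays numbered 1 the counts of genes were 9, 150, 72, 1823, 961 and 1388, and 20 for the change of the NFIA difference, with 0, 0, 0, 18, 6 and 16 members. Without both numbered 2 they were 350, 150, 66, 376, 76 and 220, with 0, 0, 0, 2, 0 and 3 members. Leaving out 1 array at a time gave 32 to 366, 0 to 82, 7 to 462, 46 to 1638, 8 to 424 and 0 to 693 genes, and 0 to 24 for the change of the NFIA difference. The members called then numbered 0 to 4 for NFIA in secondary neurospheres, 0 to 16 for passage over both cell types, 0 to 1 in control cells and 0 to 8 in NFIA cells. The lone array of a group is assumed to vary like the other groups.

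Deviations of equally numbered arrays correlated at 0.45 between PN_control and PN_NFIA and at 0.48 between SN_control and SN_NFIA, and between -0.19 and 0.04 across passages. Equal numbers thus deviated together within a passage and not across passages, and the labels do not tie them to a culture. A replicate block over all groups called 1 member (Cartpt) for NFIA over both passages, 62 genes with 3 members (Stmn2, Syt4 and Cartpt, so without Stmn4) for NFIA in secondary neurospheres, and 3 and 8 members for passage in control and NFIA cells. A replicate block within each passage called 1 member (Scg2) for NFIA over both passages, 70 genes in primary, and 654 genes with 6 members (Stmn2, Stmn4, Syt4, Elavl4, Chgb and Cartpt) in secondary neurospheres. Of 295 values of called members under all alternatives, 150 kept sign and call, 131 kept the sign alone and 14 reversed.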
